A study of Mus musculus with 6 samples.

Results

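The nuclear-encoded messenger RNAs of the mitochondrial respiratory chain were examined in RNA bisulfite sequencing (RNA BS-seq) data from cultured mouse cortical neurons. They were chosen by gene symbol, as the Nduf genes of complex I, the Sdh genes of complex II, the Uqcr genes and Cyc1 of complex III, the Cox4 to Cox8 genes of complex IV, cytochrome c (Cycs), and the Atp5 genes of ATP synthase. A total of 3972 cytosines in 74 of these genes were covered by at least 20 reads and listed with an unconverted read in all 6 libraries, out of 214659 such cytosines in 4894 genes. The cortex of wild-type C57BL/6 embryos of both sexes, pooled, at E16.5 was dissociated, and the neurons were cultured for 7 days. All cultures, including the 0 h controls, were silenced overnight with 1 μM tetrodotoxin, a sodium channel blocker, and 100 μM DL-AP5, an NMDA receptor blocker. Depolarization was by KCl at 55 mM, which lasted 2 h or 6 h or was left out (0 h), with 2 replicates per time point. RNA BS-seq reads the methylated base m5C, since bisulfite turns unmethylated cytosine into uracil, which is sequenced as T, while m5C is still read as C. The methylation level of a cytosine is the percentage of its reads that kept the C, and it holds m5C and failed conversion together.

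The respiratory chain passes electrons from NADH and succinate through complexes I, II, III, and IV to oxygen and pumps protons, and ATP synthase uses the proton gradient to make ATP. Most of its subunits are encoded in the nucleus, and the 7 nuclear core subunits of complex I include those that carry its flavin and iron-sulfur clusters. Neurons depend on this pathway for much of the ATP that ion pumping after depolarization consumes. In mRNA, m5C is written mainly by NSUN2, whose sites are typically followed by G-rich sequence.

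The cytosines that the results below turn on are shown with 10 bases on either side, 5′ to 3′ in the spliced GENCODE M21 transcript, and the capital marks the cytosine measured. The first 3 are sites whose level differed between 0 h and 6 h by at least 1 percentage point, and the last 3 are further sites with a level of at least 1% that stood on their own.
Ndufa10: ctgctgagcaCaggacaaggt
Sdhb: ggtctgaatcCggggaaagcg
Ndufb9: ctgagggaggCagaagaagaa
Atp5f1: actggtgtaaCaggaccttat
Cox7a2l: cctcgggactCaggcggtgtc
Cox6b1: tgagtggtacCggcgtgtgta

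The respiratory chain genes were unevenly represented. The rule matched 99 genes, and 25 had no cytosine that met the coverage requirement in all 6 libraries. Among these, Cox4i2, Cox7b2, Cox8b, Cox8c, and Ndufa4l2 had no cytosine listed with 20 or more reads in any library, which can also occur where every read was converted, and Cox6a2 and Cox7a1, the muscle isoforms of their subunits, had at most 2. The ATP synthase genes held 1783 of the 3972 cytosines, and Atp5a1 alone held 421 and Atp5b 360. The 7 complex I core subunits held 210, the complex I accessory subunits 497, complex II 228, complex III 511, and complex IV 647. Cycs had only 3 such cytosines, although between 10 and 109 of its cytosines were listed per library. Most of the cytosines (3517) lay in coding sequence, with 329 in 3′ UTRs and 126 in 5′ UTRs. In Ndufb9, 44 of the 57 cytosines were assigned by the authors to Ndufb9 and the overlapping gene Gm49356 together, so the transcripts cannot be told apart there.

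Of the marker genes checked, 8 of 9 neuronal markers were in the table, and all 5 microglial and all 3 endothelial markers were absent from it. The astrocyte markers Gfap and Aqp4 were also absent, and 5 of 7 were present. Of the oligodendrocyte lineage markers 3 of 6 were present. The immediate early gene Fos rose from a coverage of 55.3 and 74.8 at 0 h to 10140 and 9295 at 2 h. The 6 h replicate 1 library stood apart: in its most deeply covered cytosines (5000 reads or more, level under 1%) the unconverted share was 0.115%, against 0.0838% to 0.0870% in the other 5 libraries. This library enters every 6 h value. The labels do not say whether the replicates came from separate litters, and the p-values of the gene tests measure only the spread between these cultures. Those of single cytosines rest on summed reads and cover counting error only.

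Almost all respiratory chain cytosines had very low levels. The median level, averaged over the 6 libraries, was 0.107% in the respiratory chain genes and 0.116% in the other nuclear genes, and 95.1% of the 3972 cytosines had a level under 0.5%. A level of at least 1% was reached by 78 cytosines (1.96%), against 3.47% of the 206928 cytosines of other nuclear genes. Within coding sequence the shares were alike, 1.62% in the respiratory chain and 1.62% in other genes. In 3′ UTRs they were 5.17% and 7.95%, and in 5′ UTRs 3.17% and 7.68%. The pooled unconverted share of all respiratory chain cytosines was 0.102% and 0.0984% at 0 h, then 0.0978% and 0.0970% at 2 h and, by 6 h, 0.145% and 0.102%. The 6 h replicate 1 library was the highest, as it was in other nuclear genes, where it had 0.156% and the others 0.112% to 0.115%. In every library the respiratory chain share was the lower, at 0.868 to 0.934 of that of other nuclear genes. A listed cytosine has at least 1 unconverted read in every library, so deeper coverage allows lower levels. The respiratory chain cytosines were more deeply covered, with a median of 3544 reads in the library that covered each least, against 2411 in other nuclear genes. The part of depth in these differences was not tested.

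The standard filter of the study asks for 20 or more reads, 6 or more of them methylated, and a level of at least 10%. It is 1 of several filters in the paper's methods. The others were not applied here, so a cytosine that passes is not thereby an accepted m5C site. No respiratory chain cytosine met these limits in both replicates at 0 h, 1 passed at 2 h, and 1 at 6 h (0.0252% of the 3972). In other nuclear genes 0.245%, 0.332%, and 0.281% of the cytosines did. The site at 2 h was in Ndufa10 and the one at 6 h in Ndufa4, a subunit once placed in complex I and now in complex IV. The Ndufa4 cytosine (chr6:11907487, minus strand, 5′ UTR) had only 65 to 133 reads per library. Its level was 2.04% and 3.08% at 0 h, then 23.3% and 5.56% at 2 h and, by 6 h, 12.4% and 10.5%. The 2 h replicates lay far apart, and neither difference from 0 h passed the test (adjusted p = 0.0692 at 2 h and 0.0543 at 6 h, two-sided Fisher's exact test adjusted over 214659 cytosines). When only the 2790 cytosines that met the limits in both replicates of any time point were tested, both differences were called. The Ndufa4 cytosine entered that set through its 6 h levels alone, so these calls are not support for a difference from 0 h.

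Ndufa10, an accessory subunit of complex I, carried the cytosine with the highest mean level over the 6 libraries (chr1:92469865, minus strand, GRCm38, coding sequence, 3 bases from the end of exon 3 of 10). This mean was 10.04%, against 9.48% for the thinly covered Ndufa4 site, which had the higher mean at 2 h and at 6 h. The Ndufa10 level was 7.72% and 8.08% at 0 h, then 11.3% and 10.7% at 2 h and, by 6 h, 12.6% and 9.84%, with 1162 to 2058 reads per library. Both 0 h libraries were below all 4 KCl libraries. The mean rose from 7.90% ± 0.254 (SD, n = 2) at 0 h to 11.003% ± 0.450 at 2 h, a difference of 3.103 percentage points (adjusted p = 0.00813, Fisher's exact test on summed reads). At 6 h it was 11.2% ± 1.93, a difference of 3.30 percentage points from 0 h (adjusted p = 0.0112) and of 0.199 from 2 h (adjusted p = 1.0). The Wilson 95% intervals of the summed reads, which cover counting error only, ran from 6.97% to 8.91% at 0 h, from 10.1% to 12.05% at 2 h, and from 9.88% to 12.2% at 6 h. Both calls were lost when single libraries were left out. Without 6 h replicate 1 the 6 h difference was 1.94 percentage points (adjusted p = 0.578). Without 0 h replicate 1 the differences were 2.92 at 2 h (adjusted p = 0.274) and 3.12 at 6 h (adjusted p = 0.252). Without 0 h replicate 2 they were 3.28 (adjusted p = 0.0534) and 3.48 (adjusted p = 0.0662), and without 2 h replicate 1 the 2 h difference was 2.78 (adjusted p = 0.221). Both calls held when replicate 2 of the later time was left out, with 3.42 at 2 h (adjusted p = 0.0203) and 4.66 at 6 h (adjusted p = 0.000828). The 6 h libraries lay on either side of both 2 h libraries.

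The other 49 cytosines of Ndufa10 had mean levels of 0.0721% to 0.301%. The 3 within 47 bases of it in the same exon ranged from 0.0452% to 0.358% over all libraries. The high level was thus that of a single cytosine, as the plot of levels along Ndufa10 shows. In the genome the exon ends after CAG and the intron follows, while in the spliced transcript, shown above, the cytosine is followed by AGGAC. Atp5f1, which encodes subunit b of ATP synthase, had a cytosine in the same place, 3 bases from the end of exon 4 of 8 (chr3:105955898, minus strand), with a level of 1.52% and 0.985% at 0 h, then 1.11% and 2.63% at 2 h and, by 6 h, 1.63% and 1.89%. Of the 37 respiratory chain cytosines at the third base from an exon end, these 2 had a level of at least 1% (5.41%). Among all nuclear mRNAs, 43 of 1502 cytosines there had a level of at least 1% (2.86%), against 3.30% of all positions.

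**Figure D1:**
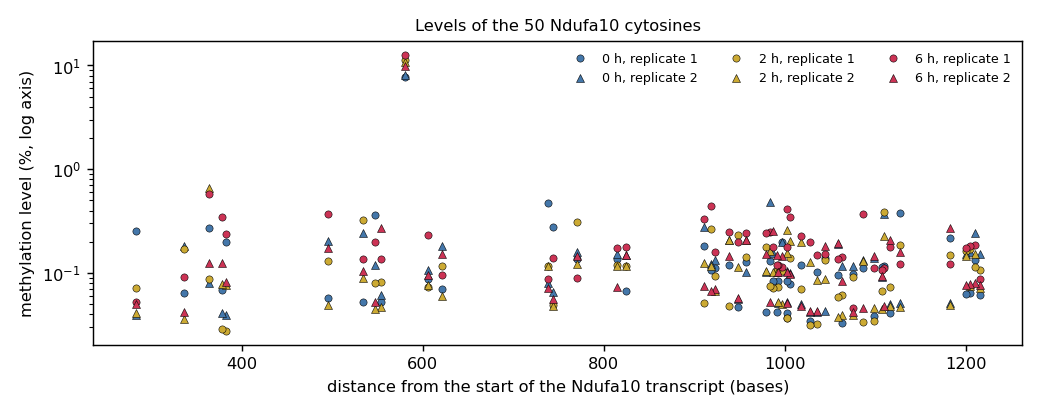
Methylation level (%, log axis) of the 50 cytosines of Ndufa10 against their distance in bases from the transcript start. Colours stand for the time in KCl, circles for replicate 1 and triangles for replicate 2. The cytosine at base 581 lies at 7.72% to 12.6%, and each of the other 49 has a mean of at most 0.301%.

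Between time points, few respiratory chain cytosines passed the test. From 0 h to 2 h, 4 of the 3972 were called (0.101%), against 0.385% of all cytosines (0.261% higher and 0.124% lower at 2 h), and 3 were higher at 2 h. From 0 h to 6 h, 16 were called (0.403%, all cytosines 1.16%), with 14 higher at 6 h. From 2 h to 6 h, 33 were called (0.831%, all cytosines 1.39%), with 32 higher at 6 h. In each comparison the share of respiratory chain cytosines called was below the background. Most calls were small differences between low levels: 12 of the 16 and 32 of the 33 had a mean level under 1%, and over the 3 comparisons 13 different cytosines of Atp5a1 and 10 of Atp5b were called. The 6 h replicate 1 library had the highest level at 12 of the 16 and 23 of the 33. Without it, 2 and 7 cytosines were called. Without 6 h replicate 2, 100 and 156 were called. For 0 h vs. 2 h, 0 of the 4 calls held without 0 h replicate 1 and 0 without 0 h replicate 2, where 4 and 2 other cytosines were called. Without 2 h replicate 1 only 1 cytosine was called, and without 2 h replicate 2 there were 10 calls, 2 of them among the 4. Among the calls under 1%, the largest rise from 0 h to 6 h was in Atp5d, the ATP synthase delta subunit (chr10:80142604, plus strand, 3 bases from the end of exon 2 of 5), with 0.0854% and 0.147% at 0 h, then 0.483% and 0.201% at 2 h and, by 6 h, 0.628% and 0.427%. The difference was 0.411 percentage points (adjusted p = 0.00422), 0.311 without 6 h replicate 1 (adjusted p = 0.133) and 0.381 without 0 h replicate 1 (adjusted p = 0.364). In Atp5o, a stalk subunit of the same enzyme, a cytosine was higher at 2 h alone (chr16:91928928, minus strand), with 0.0845% and 0.0467%, then 0.319% and 0.194%, then 0.111% and 0.0546% (adjusted p = 0.0169 for 0 h vs. 2 h, and 0.150 to 0.564 without either 0 h library or 2 h replicate 1). The only fall from 0 h to 2 h was in Cox4i1 (chr8:120673249, plus strand), by 0.0666 percentage points from 0.100% and 0.104% (adjusted p = 0.0091, and 0.0760 to 0.601 without either 0 h library or 2 h replicate 2).

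Calls with a difference of at least 1 percentage point and no overlap between the replicates were 1, 4, and 1 in the 3 comparisons, against 0.209%, 0.243%, and 0.237% of all cytosines. From 0 h to 6 h all 4 were higher at 6 h, and they included Ndufa10, described above, Sdhb, and Ndufb9.

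Sdhb, the iron-sulfur subunit of succinate dehydrogenase, had its site at chr4:140979035 (plus strand, coding sequence, 11 bases into the last of 8 exons). The level was 0.502% and 0.962% at 0 h, then 1.72% and 1.64% at 2 h and, by 6 h, 2.77% and 2.55%, with 687 to 1394 reads. The 3 time points did not overlap. The mean rose by 1.93 percentage points from 0 h to 6 h (adjusted p = 0.00117), from 0.732% ± 0.325 to 2.66% ± 0.155 (SD, n = 2). The difference was 1.82 without 6 h replicate 1 (adjusted p = 0.0549) and 1.70 without 0 h replicate 1 (adjusted p = 0.170).

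Ndufb9, an accessory subunit of complex I, had its site at chr15:58936366 (plus strand, coding sequence, exon 2 of 4), in the stretch shared with Gm49356. The level was 0.709% and 0.857% at 0 h, then 1.13% and 1.32% at 2 h and, by 6 h, 1.82% and 2.74%, with 3852 to 4849 reads. Again the time points did not overlap. The 6 h mean was above 0 h by 1.49 percentage points (adjusted p = 1.3e-11) and above 2 h by 1.05 (adjusted p = 9.6e-05). This was the only one of the 4 whose 0 h vs. 6 h call held without 6 h replicate 1 (adjusted p = 1.8e-12) and without each of the other libraries in turn. The 2 h vs. 6 h difference was 0.960 without 2 h replicate 1 (adjusted p = 0.0582) and 0.590 without 6 h replicate 2 (adjusted p = 0.127). Fisher's exact test takes no account of the spread between replicates. With limma, which uses it, no respiratory chain cytosine with a level of at least 1% was called in any comparison, and 2, 4, and 2 of the 78 had an unadjusted p under 0.05. The share called by limma over all cytosines of that level is not given here. Having 0 calls with 2 replicates per time point does not show that levels were unchanged.

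**Figure D2:**
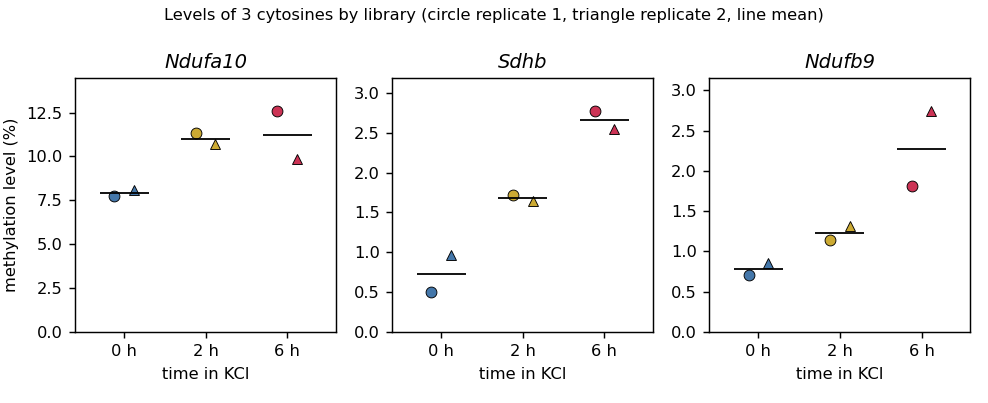
Methylation level (%) by time in KCl (h) of 3 cytosines with a called difference of at least 1 percentage point between 0 h and 6 h. Points are single libraries, lines are means of 2 replicates, and each panel has its own axis starting at 0. In all 3 genes both 6 h libraries lie above both 0 h libraries.

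The 78 cytosines with a level of at least 1% were of 2 kinds. A total of 16, in 15 genes, had no other such cytosine within 20 bases, and the other 62, in 5 genes, had one. Among the 16, the level was higher at 6 h than at 0 h in 13, also when 6 h replicate 1 was left out. Of all 78, 30 (38.5%) were higher at 2 h than at 0 h, or 48 (61.5%) when 2 h replicate 1 was left out. At 6 h 68 (87.2%) were higher than at 0 h, or 57 (73.1%) when 6 h replicate 1 was left out. These are not 78 separate sites, since 30 lie in 1 stretch of Cox7a2 and share reads. Of the 7183 cytosines of at least 1% in other nuclear genes, isolated or not, 55.6% were higher at 2 h, or 53.7% without 2 h replicate 1. At 6 h the share was 66.2%, or 49.0% without 6 h replicate 1. Of the 16, 6 (37.5%) matched the letters CNGG in the transcript, counted from the cytosine on the sense strand, against 8.86% of all 3972 and 3.23% of the 62. The 6 lay in Atp5f1, Cox7a2l, Ndufa10, Ndufaf3, Sdhb, and Sdhd. These letters were chosen after the sequences were seen, and the counts are a description.

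Some isolated sites had no called difference between time points. Cox7a2l, a factor that joins complexes III and IV into supercomplexes, had a site in its 3′ UTR (chr17:83502289, minus strand) with 2.27% and 1.98% at 0 h, then 2.44% and 2.39% at 2 h and, by 6 h, 2.24% and 2.45%. Cox6b1, which links the monomers of the complex IV dimer, had one in its coding sequence (chr7:30623450, minus strand) with 2.97% and 2.33%, 2.64% and 2.37%, and 1.93% and 2.57%. Both 2 h libraries of Cox7a2l were above both 0 h libraries, and all other time points overlapped in these genes. With 5219 to 7734 reads per library neither gene passed the test (lowest adjusted p 0.816 and 0.417). Sdhd, the membrane anchor of complex II, had a site in its 3′ UTR (chr9:50596625) with 1.25% and 4.14% at 0 h, then 3.32% and 5.65% at 2 h and, by 6 h, 3.99% and 5.35%, where the time points overlapped.

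The 62 neighbouring cytosines had low coverage, with a median of 73 reads in the library that covered each least. In Cox7a2, a small subunit of complex IV, 30 cytosines over 102 bases, across the end of the coding sequence and into the 3′ UTR (chr9, bases 79755503 to 79755604, minus strand) had means of 2.31% to 6.73%. They had 40 to 203 reads and 1 to 10 unconverted reads per library. Their median level was 1.68% and 5.41% at 0 h, then 2.17% and 3.86% at 2 h and, by 6 h, 6.12% and 4.91%, so replicates differed as much as time points. In Atp5j, a stalk subunit of ATP synthase, 16 cytosines had 37 to 54 reads and 1 to 4 unconverted reads. In Cox7c, an adjacent pair at chr13:86046658 and chr13:86046657 had higher levels than the rest of that gene. The first had 8.02% and 6.51% at 0 h, then 9.63% and 8.95% at 2 h and, by 6 h, 6.74% and 6.19%. The second had 5.08% and 7.38%, 8.70% and 7.73%, and 9.48% and 3.55%. Neither differed between time points past the threshold (lowest adjusted p 0.374 and 0.817).

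At the level of genes, the pooled unconverted share of a transcript gave no call in the respiratory chain. Of the 65 genes with at least 5 cytosines, 0 were called in each comparison by limma, and 5, 3, and 6 had an unadjusted p under 0.05. Over all 2748 genes, 0.328% (0.0728% higher at 2 h), 0.509%, and 0% were called, so 0 calls among the 65 were close to the background. The highest mean shares were those of Cox7c (1.17%), Ndufa4 (0.510%), Ndufa3 (0.483%), Cyc1 (0.316%), and Ndufa10 (0.285%). All but Ndufa10 were among the least covered genes of their complexes. Each listed cytosine has at least 1 unconverted read per library, so low coverage alone keeps the share from being low. Without its cytosine described above, Ndufa10 had a share of 0.108% to 0.195%.

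The coverage of a cytosine is the number of reads over it and follows the amount of the mRNA in the library. The mean coverage per cytosine was therefore compared between time points, after each library was brought to the same median over the 2748 genes. It is a level per position and is here called scaled coverage, in reads per cytosine. It is taken over cytosines listed in all 6 libraries, so it leans toward the better covered parts of a gene. In poly(A) RNA from whole cultures, fewer cells of a type and less RNA per cell cannot be told apart.

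The respiratory chain mRNAs were well covered, from 375 (Cox7c) to 17042 (Cox4i1, the usual isoform of complex IV subunit 4), with a median of 3205. The highest after Cox4i1 were the ATP synthase genes Atp5b, the catalytic subunit, with 10819, and Atp5a1 and Atp5e. The complex I core subunits were lower, and Ndufv2 (1238) was the lowest of them. Among the genes for the membrane ring subunit c, Atp5g3 had 6892 to 8300 reads per library, Atp5g1 2438 to 2729, and Atp5g2 937 to 1241, so the 3 did not overlap. Cyc1, cytochrome c1 of complex III, had 732 to 906. In complex I, Ndufa2, Ndufa7, and Ndufb10 were the highest and Ndufa3 (412) was the lowest. In 6 short mRNAs (Atp5k, Cox7a2, Cox7c, Ndufa4, Ndufc2, and Uqcr11) replicates differed so much that no change could be read. Their standard errors for 0 h vs. 6 h were 0.224 to 0.453 on the log2 scale, against 0.0475 to 0.192 in the other 59 genes. In all 6, replicate 1 was below replicate 2 at 0 h and 2 h and above it at 6 h.

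After 2 h of KCl, few respiratory chain mRNAs were called. By limma, 2 of 65 genes rose and 0 fell, against 15.4% and 11.6% of all genes (27.0% in either direction), and the median log2 change was 0.02. Both were ATP synthase genes. Atp5b had a scaled coverage of 9077 and 9521 at 0 h, then 11030.5 and 11706 at 2 h and, by 6 h, 11797 and 11784. All 4 KCl libraries were above both 0 h libraries. It rose by 0.29 on the log2 scale at 2 h (SE 0.0597, adjusted p = 0.0159) and by 0.34 at 6 h (SE 0.0597, adjusted p = 0.00324). Atp5j rose by 0.25 at 2 h (adjusted p = 0.0463). Both 2 h calls were lost when either 0 h library or either 6 h library was left out (Atp5b adjusted p 0.0533 to 0.0911), and that of Atp5j also without 2 h replicate 1. When libraries were divided by their total in place of the median, 1 gene rose and 3 fell at 2 h.

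More genes were called after 6 h. From 0 h to 6 h, 25 of the 65 genes were called, of which 20 fell (30.8%) and 5 rose (7.69%). Over all genes 30.9% fell and 30.3% rose (61.1% in either direction), so the share that fell was close to the background. The median log2 change was -0.06 over the 65 genes and -0.000384 over all genes. By complex, the median was -0.51 for the complex I core subunits, -0.24 for the complex I accessory subunits, and -0.30 for complex II. It was -0.01 for complex III, 0.09 for complex IV, and -0.02 for ATP synthase. Scaled by library totals, 25 fell and 2 rose.

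All 7 complex I core subunits fell from 0 h to 6 h, against 30.9% of all genes. Ndufs1, the largest of them and the carrier of several iron-sulfur clusters, had a scaled coverage of 2144 and 2240 at 0 h, then 2059 and 2072 at 2 h and, by 6 h, 1266 and 1241. The 2 h libraries were slightly below the 0 h libraries and both 6 h libraries were far below them. The log2 change from 0 h to 6 h was -0.81 (SE 0.0525, adjusted p = 7.5e-05). Ndufs7 changed by -0.63, Ndufv2, a subunit of the NADH-oxidising flavoprotein part, by -0.51, Ndufs8 by -0.48, Ndufs3 by -0.39, and Ndufv1, which binds the flavin, by -0.34. In each of the 7 both 6 h libraries were below both 0 h and both 2 h libraries, and all 7 were also called from 2 h to 6 h. All 7 calls held in both comparisons when any 1 library was left out and under each scaling. With at least 20 cytosines per gene, Ndufs7, Ndufs8, and Ndufv2 were too short of cytosines to be tested, and the other 4 were called.

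Among the 18 accessory subunits of complex I, 8 fell (44.4%, all genes 30.9%), 0 rose (all genes 30.3%), and 17 had a log2 change below 0. Ndufa6 had 3616 and 4240 at 0 h, then 3325 and 3547 at 2 h and, by 6 h, 2262 and 2238, a change of -0.80 (adjusted p = 0.000424). Ndufa8 changed by -0.51, Ndufa10 by -0.32, and Ndufb9 by -0.24, while Ndufa2, the best covered of them, had a value of 0.08 (adjusted p = 0.202). In complex II, Sdhb had 4507 and 5009 at 0 h, then 4835 and 5151 at 2 h and, by 6 h, 3195 and 3019, a change of -0.61 (adjusted p = 0.000639). Sdha, the flavoprotein with the succinate site, changed by -0.27 (adjusted p = 0.0032), and the anchors Sdhc and Sdhd did not pass (-0.32 and -0.05). Sdhb, Ndufa10, and Ndufb9, whose sites had a higher level at 6 h, had lower coverage then, whereas Atp5d, with a site that also rose, had higher coverage, and Atp5a1, with 4 such sites, had a value of -0.02.

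**Figure D3:**
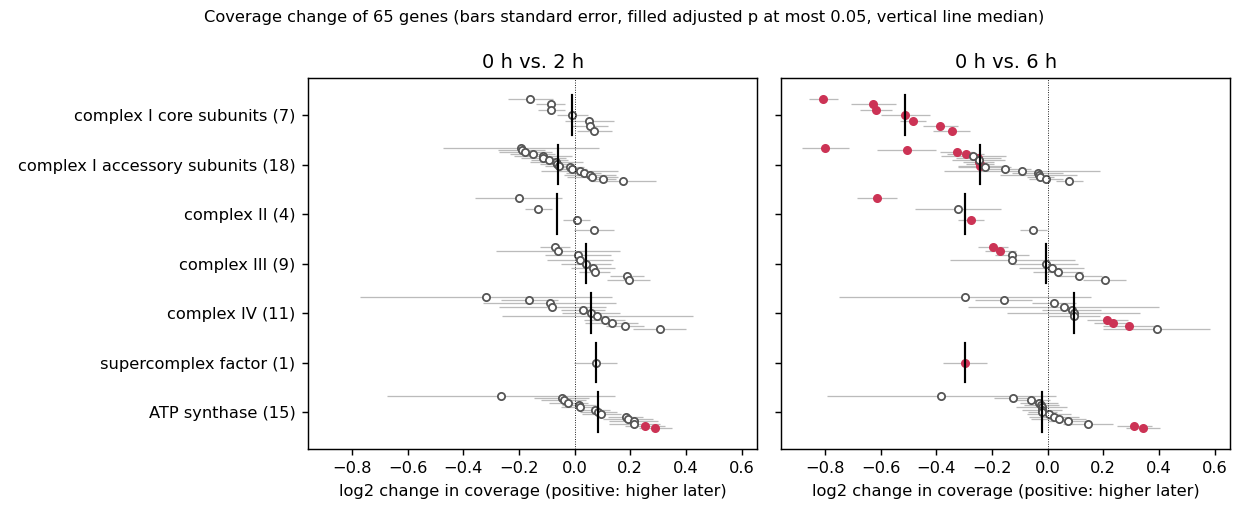
Change in scaled coverage on the log2 scale for 65 respiratory chain genes, from 0 h to 2 h (left) and from 0 h to 6 h (right), grouped by complex. Bars are standard errors, filled points have an adjusted p of at most 0.05 (limma), and vertical lines are medians. At 6 h the 7 complex I core subunits lie between -0.34 and -0.81, and ATP synthase has a median of -0.02.

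In complexes III and IV and ATP synthase most genes did not pass the test, while over all genes 30.9% fell and 30.3% rose from 0 h to 6 h. Uqcrc1, a core protein of complex III, and Uqcrfs1, the Rieske iron-sulfur protein, fell by 0.20 and 0.17, and 7 of the 9 complex III genes did not pass. Cyc1 had a value of 0.01. Cox7a2l, the supercomplex factor, fell by 0.30. In complex IV, 3 of 11 genes rose and 0 fell, but none of the 3 rises passed when libraries were divided by their total. Cox5a had 3019 and 3528 at 0 h, then 3934 and 4137 at 2 h and, by 6 h, 3761 and 4257, a rise of 0.29 (adjusted p = 0.0369). Cox8a rose by 0.23 and Cox7b by 0.21. Cox4i1 did not pass, with 15921 and 17776 at 0 h and 16931 and 17258 at 6 h (a value of 0.02), and neither did Cox6a1 (0.39, SE 0.192). Of the 15 ATP synthase genes 2 rose, Atp5b and Atp5d, the delta subunit (0.31, adjusted p = 0.00634), and 0 fell. Atp5a1, the alpha subunit, had values between 9535 and 10247 in all 6 libraries, and Atp5g1, Atp5g2, and Atp5g3 had changes between -0.02 and 0.04 that did not pass.

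**Figure D4:**
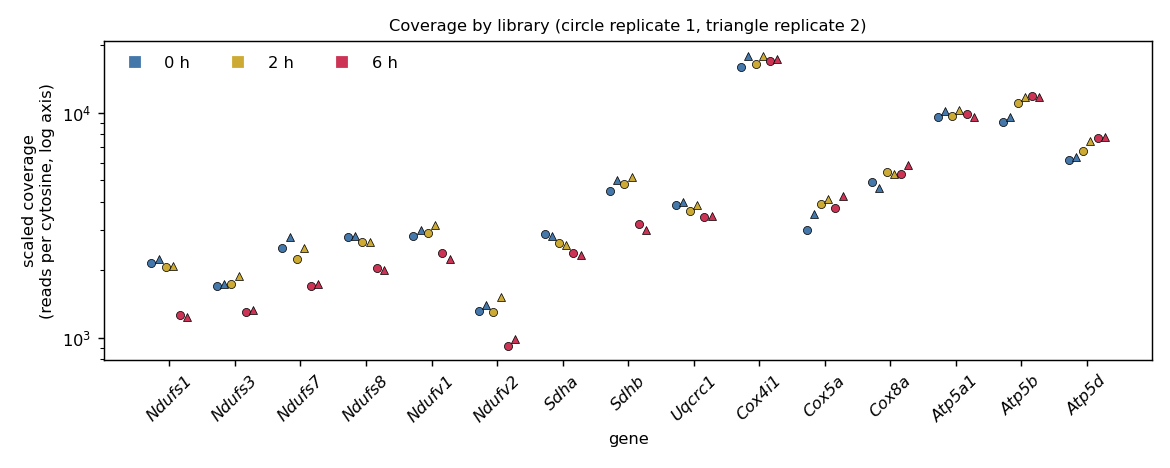
Scaled coverage (reads per cytosine, log axis) of 15 respiratory chain genes in each library, with colours for the time in KCl, circles for replicate 1 and triangles for replicate 2. In the 6 complex I core subunits plotted and Sdhb the 6 h libraries are the lowest, and Atp5b is lowest at 0 h.

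Several of these calls rested on the number of libraries. From 0 h to 6 h, 14 of the 25 calls held without 6 h replicate 2, 17 without 0 h replicate 2, 18 without 6 h replicate 1, and 22 without 0 h replicate 1, with the same sign for all 25. The rises of Cox5a, Cox7b, and Cox8a and the falls of Cox7a2l, Uqcrc1, Uqcrfs1, and Ndufb9 were among those lost. From 2 h to 6 h, 21 of the 65 genes fell (all genes 28.2%) and 0 rose (all genes 22.8%, and 51.0% in either direction), with a median log2 change of -0.10. Of the 21, 11 held without 6 h replicate 1 and 12 without 6 h replicate 2. The complex I core subunits made up 7 of the 21, the accessory subunits 8, and complex IV 0. The 2 h and 6 h comparisons with 0 h share their control libraries.

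Other genes of mitochondrial energy metabolism also went both ways at 6 h. Of the 14 tricarboxylic acid cycle enzymes tested, which feed NADH and succinate to the chain, 6 fell and 2 rose from 0 h to 6 h. Over all genes 30.9% fell and 30.3% rose. Fh1, fumarase, changed by -0.76, Suclg1 by -0.75, and Idh3g by -0.62, while Idh3a and Pdha1 rose by 0.35 and 0.29. Of the 40 assembly factors listed only 3 could be tested. Coa3 and Uqcc2 fell by 0.82 and 0.39, and Cox19 rose by 0.33. Only 1 of 9 transcriptional regulators of respiratory genes had a cytosine with 20 or more reads in all 6 libraries, and none could be tested. All 4 astrocyte markers tested fell from 0 h to 6 h, by 0.28 (Slc1a3) to 0.72 (Gja1) on the log2 scale, and the summed coverage of the 5 in the table was 9613 to 11283 at 0 h and 7332 to 7656 at 6 h. Of the 6 neuronal markers tested 2 rose (Snap25 by 0.39 and Gad1 by 1.22), 1 fell (Tubb3 by 1.23), and the summed coverage of 8 was 41239 to 50015 at 0 h and 41076 to 44871 at 6 h. The summed coverage of the 3 oligodendrocyte lineage markers was 3402 to 3907 at 0 h, lay between 2676 and 2888 at 2 h, and reached 3967 to 4301 by 6 h, and Olig1, which was tested, fell by 0.60 at 2 h and was 0.20 above 0 h at 6 h (adjusted p = 0.0436). The part of these shifts in the fall of complex I and complex II mRNAs was not tested.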

How the data were processed

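RNA BS-seq was done on poly(A) RNA of 6 libraries. Per the paper's methods, the authors trimmed the reads, mapped them to the mouse genome (mm10, GRCm38) and called methylation with meRanTK. The deposited counts are the reads over each cytosine and those read as C, and the deposited fraction (methylation rate) is their quotient after other bases are left out. Only cytosines with at least 10 reads and 1 unconverted read are listed. The read-level filters of the study were not repeated, and the caller's p-values were not used. PCR copies were not separated.

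Members and lists were chosen with earlier results of these data known. Positions with 20 or more reads in all 6 libraries were joined and placed on GENCODE M21 transcripts. Reads summed over replicates were compared by two-sided Fisher's exact test (SciPy 1.17.1) with Benjamini-Hochberg adjustment over all 214659 positions, and a call has an adjusted p of at most 0.05. Coverage and unconverted share of the 2748 genes with at least 5 positions were tested with limma 3.58.1 (R 4.3.3) on the log2 scale with all 6 libraries in 1 fit. Fisher's exact test, the Cochran-Mantel-Haenszel test and limma on coverage were also run on simulated data. Named items were the highest levels and coverages, the largest called changes and a set list of subunits. Alternatives covered filters, scaling, tests, replicate blocks and leaving out each library. The results for 1 gene are not reported here.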

Additional observations from a re-analysis of the deposited data

How the results depend on the processing

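The site counts (4, 16, and 33 respiratory chain cytosines called in the comparisons 0 h to 2 h, 0 h to 6 h, and 2 h to 6 h, in this order below) depended on the test and on single libraries. Tested over positions passing the standard filter, a set chosen by these same levels, they were 2, 2, and 0. With a difference of at least 1 percentage point and no overlap they were 1, 4, and 1. Over positions with a mean level of at least 1% they were 6 from 0 h to 6 h and 2 from 2 h to 6 h, and with limma they were 0, 0, and 0. Leaving out 1 library gave 1 to 10, 2 to 100, and 7 to 156. The gene coverage counts (2, 25, and 21) ranged over 0 to 9, 14 to 31, and 11 to 24 with 1 library left out. For 0 h vs. 2 h the count was 4 when divided by the library sum and 5 with at least 1 position per gene, and the median log2 change was -0.052 (0.019 otherwise). With 1 library left out the medians were -0.050 to 0.092, -0.19 to -0.025, and -0.17 to -0.038. The gene unconverted share gave 0 calls with any 1 library left out, and 1 for 0 h vs. 6 h with at least 20 positions per gene. With a level minimum of 5% in place of 10%, 3, 3, and 11 cytosines passed in both replicates of the 3 time points, and with 20% 0 passed at 2 h and 0 at 6 h. The pooled unconverted share was 0.110% at 0 h and 0.109% at 2 h as the median of the genes, and at 2 h 0.0960% without sites of at least 5% and 0.0955% at 500 or more reads. Of the named genes and sites that were called, none changed direction under the alternatives run, while differences that were not called can change sign.

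The labels do not say that a replicate number marks a shared culture or day. Same-numbered deviations in coverage had a correlation of 0.44 for 0 h vs. 2 h, and of -0.27 for each comparison with 6 h. The 0 h and 2 h libraries thus shared deviations by number, but the numbers did not pair the samples across all 3 time points. The main fits have no replicate block. With the replicate block, coverage gave 3, 28, and 19 calls, the unconverted share gave 1 for 0 h vs. 6 h, the Cochran-Mantel-Haenszel test on sites gave 4, 12, and 28, and limma on sites gave 0, 0, and 0. With the 6 h numbers crossed, a pairing chosen after seeing the data, coverage gave 29 calls from 0 h to 6 h and 21 from 2 h onward. The causes were not tested.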
